A study of Homo sapiens with 3 samples.

Results

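The cadherins CDH1 and CDH2, the mesenchymal proteins VIM and FN1, the epithelial surface protein EPCAM and the transcription factors ZEB1, ZEB2, SNAI1, SNAI2 and TWIST1 were examined in A549 cells with and without knockdown of DDX24. These 10 genes were taken by name from the 58735 genes counted in each library. All 10 averaged 1 CPM or more (CPM is the count per 1000000 counts of a library), as did 13984 of all genes.

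Cadherins are surface proteins that hold neighbouring cells together through calcium-dependent contacts and are anchored to actin by catenins. In epithelial-mesenchymal transition (EMT), cells lose E-cadherin and gain N-cadherin, vimentin and fibronectin, and factors of the SNAI, ZEB and TWIST families drive the switch, mainly by repressing epithelial genes through E-box sequences. The level of each marker alone does not define the state, since lung carcinoma lines often carry epithelial and mesenchymal genes together.

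A549 is an established human lung adenocarcinoma cell line. RNA was sequenced from 3 libraries, 1 per condition: control cells (Control-sh) and cells carrying each of 2 shRNAs against the RNA helicase DDX24 (DDX24-sh1 and DDX24-sh2, written sh1 and sh2 from here), all of the same line and grown in serum-supplemented F12K medium. Per the methods, lentiviral pLKO.1 vectors and puromycin selection gave the stable lines, controls included. The control is described once as empty vector and once as a control shRNA, so which of these the control library holds is not known. DDX24 was counted 2010 times in the control, 637 times in sh1 and 765 times in sh2, that is 29.6% and 36.0% of control after scaling. With a single library per condition, no difference below has a replicate check and no test was possible.

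Library totals ran from 17218884 to 18337471 counts, and mitochondrial genes took 4.36% of counts in the control, 5.13% in sh1 and 7.04% in sh2. The deposited FPKM values of both shRNA libraries fit the counts only when their labels are exchanged. The FPKM multiplied by gene length and divided by the count stayed constant within 1% for 100% of 12171 genes with at least 50 counts in sh1 when the FPKM labelled sh2 were used, against 5.23% with the FPKM labelled sh1. The names sh1 and sh2 below follow the labels of the counts, and which labelling is right is not known. A ratio is the log2 ratio of scaled counts to the control, and its interval is an exact 95% interval for counting error only. Variation between cultures is not in it, and reads counted without molecular identifiers need not be separate molecules. Both ratios of a gene share the control library.

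E-box sequences in promoters are shown because SNAI and ZEB proteins bind the motif CAGGTG. RefSeq windows of 300 bases on GRCh38.p14, from 250 bases before to 50 bases after an annotated start, were found for 5 of the 10 genes, namely CDH2, VIM, FN1, ZEB1 and ZEB2, with 12 windows in all, of which 7 belong to the 7 annotated starts of ZEB1. The motif, read on both strands as CAGGTG or CACCTG, occurred in 2 of these 12 windows, both of ZEB1, and in 7231 of all 35116 promoter windows (20.6%). The ZEB1 window at chr10:31318966-31319265 (plus strand) held 3 matches, beginning at -242, -85 and 33 bases from the start, and the window at chr10:31318167-31318466 (plus strand) held 1, at -57. The VIM window at chr10:17227991-17228290 (plus strand) held none and is shown for comparison, as VIM had the highest level per length of the 10 genes. Capitals mark the motif on either strand, and a match is only a match of letters. The sequences run 5′ to 3′.
ZEB1 window with 3 matches: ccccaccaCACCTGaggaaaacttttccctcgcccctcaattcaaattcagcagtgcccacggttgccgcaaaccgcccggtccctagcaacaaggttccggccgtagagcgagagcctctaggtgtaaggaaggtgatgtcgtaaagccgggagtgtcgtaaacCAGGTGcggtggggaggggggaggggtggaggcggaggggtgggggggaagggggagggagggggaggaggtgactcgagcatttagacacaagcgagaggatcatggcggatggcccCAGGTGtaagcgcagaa
ZEB1 window with 1 match: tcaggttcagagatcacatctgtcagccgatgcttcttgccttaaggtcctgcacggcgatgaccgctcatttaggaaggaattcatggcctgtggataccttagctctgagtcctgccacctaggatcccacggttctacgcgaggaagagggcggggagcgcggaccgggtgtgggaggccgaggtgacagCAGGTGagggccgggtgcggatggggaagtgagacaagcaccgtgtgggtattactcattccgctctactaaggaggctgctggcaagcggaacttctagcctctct
VIM window: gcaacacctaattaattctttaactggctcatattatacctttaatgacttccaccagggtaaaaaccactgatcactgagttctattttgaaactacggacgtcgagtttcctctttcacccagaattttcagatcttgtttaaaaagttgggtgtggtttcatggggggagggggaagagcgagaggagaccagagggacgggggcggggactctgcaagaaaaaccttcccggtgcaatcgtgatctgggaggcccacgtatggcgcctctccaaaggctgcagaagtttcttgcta

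The 10 genes spanned a wide range of level in control cells, with the mesenchymal proteins highest and EPCAM and ZEB2 lowest. Levels are in TPM, counts divided by gene length and scaled to a sum of 1000000 in each library, so that genes can be compared. In the control, VIM stood at 217 TPM, FN1 at 100.3, CDH2 at 62.0 and CDH1 at 18.2. SNAI1 stood at 13.8 TPM, ZEB1 at 11.2, TWIST1 at 10.7, SNAI2 at 3.75, EPCAM at 2.65 and ZEB2 at 2.30. The counting intervals of SNAI1, ZEB1 and TWIST1 overlapped in this library (11.4 to 16.7, 10.2 to 12.2 and 8.71 to 12.9 TPM), as did those of SNAI2, EPCAM and ZEB2 (2.87 to 4.82, 1.81 to 3.74 and 2.03 to 2.58 TPM, with SNAI2 overlapping EPCAM and EPCAM overlapping ZEB2). CDH1 (16.7 to 19.8 TPM) and SNAI1 met at the edge of their intervals. The gene length in the files joins the exons of all annotated transcripts, and with the longest coding transcript instead the first 4 places kept their order while 5 of the other 6 genes moved, ZEB2 from last to the eighth place. That length is 25058 bp against 9583 bp for ZEB2, 5158 bp against 1868 bp for VIM and 17315 bp against 8905 bp for FN1. VIM lay above 95.5% of the 13984 genes in control TPM, CDH1 above 50.2% and ZEB2 above 11.6%.

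**Figure D1:**
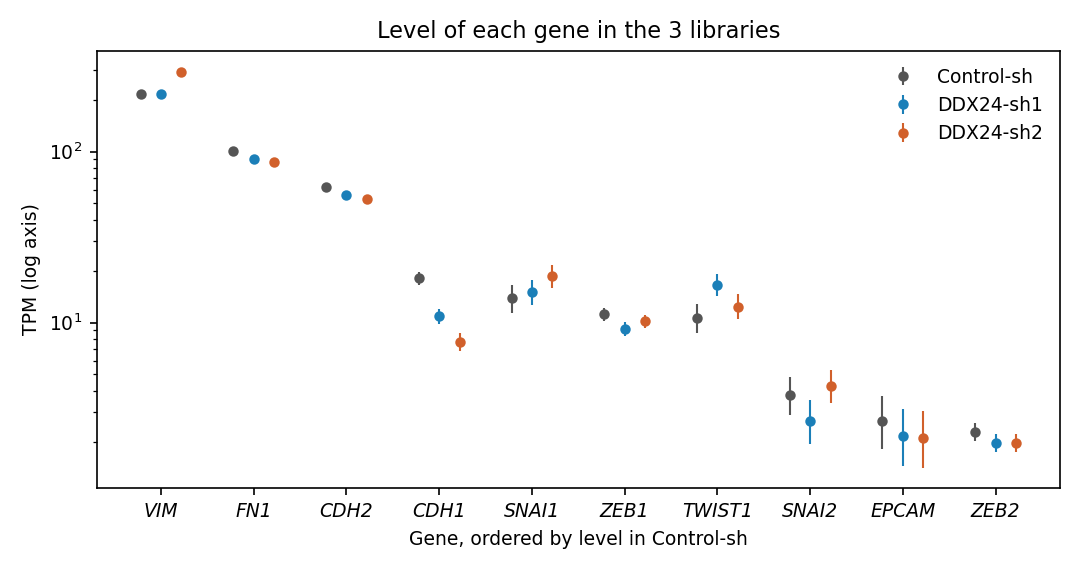
Level in TPM on a log axis for each of the 10 genes in the 3 libraries, in order of the control level; points are single libraries and bars are exact 95% Poisson intervals. CDH1 falls from 18.2 TPM in the control to 7.73 TPM in sh2, below SNAI1 at 18.7 TPM.

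The epithelial cadherin CDH1 was the one gene of the 10 that fell beyond 2-fold in either shRNA library, while the neural cadherin CDH2 stayed close to its control level. CDH1 (ENSG00000039068, protein-coding, plus strand of chromosome 16, 68737225 to 68835548) encodes E-cadherin, the core adhesion protein of epithelial junctions. It was counted 538 times in the control, 358 times in sh1 and 261 times in sh2, or 18.2, 10.9 and 7.73 TPM. Both knockdown libraries lay below the control, sh2 lower than sh1. In bulk RNA, fewer cells carrying a transcript and less of it per cell cannot be told apart. The log2 ratio was -0.68 (interval -0.88 to -0.49) in sh1 and -1.12 (-1.34 to -0.91) in sh2, so the fall to 46.1% of control in sh2 passed 2-fold while its interval reached back inside 2-fold. The log2 ratio of sh2 to sh1 was -0.43 (-0.67 to -0.20). Were the FPKM labels the right ones, both values would change places, since the FPKM as labelled give -1.08 in sh1 and -0.66 in sh2. The ratio of CDH1 lay below all but 5.89% of the 13984 genes in sh1 and all but 2.29% in sh2.

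CDH2 (ENSG00000170558, protein-coding, minus strand of chromosome 18, 27950966 to 28177446) encodes N-cadherin, the cadherin that mesenchymal cells carry. Its counts were 1471 in the control, 1473 in sh1 and 1421 in sh2, a span of a few percent. After scaling, the log2 ratio was -0.10 (-0.20 to 0.007) in sh1 and -0.13 (-0.24 to -0.02) in sh2 and both libraries were near the control, at 93.4% and 91.4% of it. With scaling by total counts, the interval of CDH2 in sh2 also crosses 0. Taken inside each library, where no scaling enters, CDH2 was counted 2.73 times as often as CDH1 in the control (2.48 to 3.02), 4.11 times in sh1 (3.66 to 4.63) and 5.44 times in sh2 (4.77 to 6.24). The ratio of N- to E-cadherin counts was thus 1.5-fold (1.29 to 1.76) and 1.99-fold (1.68 to 2.36) that of the control, and it was 1.32-fold higher in sh2 than in sh1 (1.11 to 1.58).

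**Figure D2:**
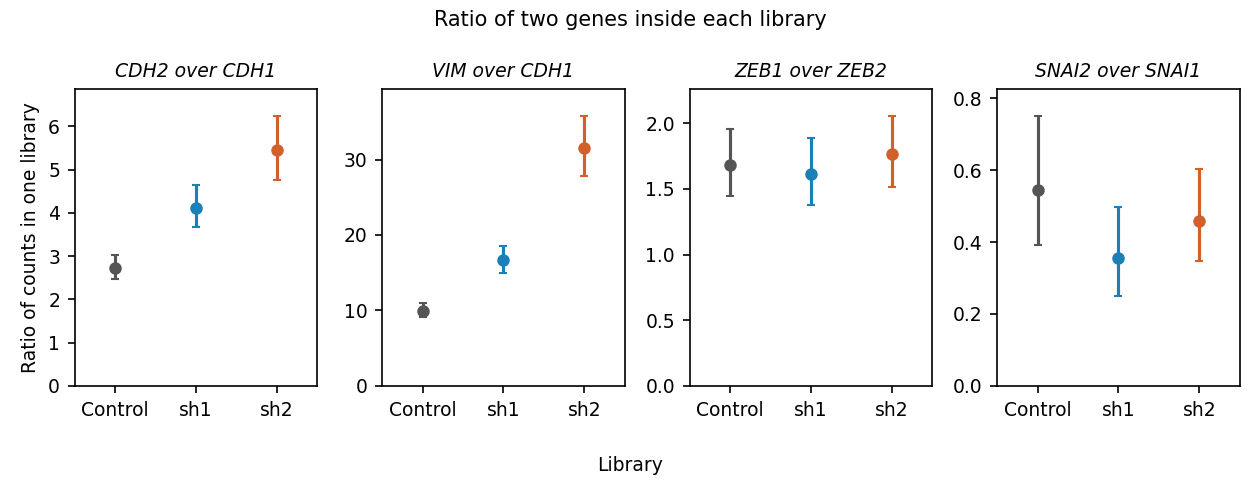
Ratio of the counts of gene pairs inside each library (y axis, starting at 0) with exact 95% intervals, for CDH2 over CDH1, VIM over CDH1, ZEB1 over ZEB2 and SNAI2 over SNAI1. The first ratio goes from 2.73 to 5.44 and the second from 9.98 to 31.5 between the control and sh2, while the intervals of the other 2 ratios overlap across libraries.

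Among genes averaging 10 CPM or more, the 3 whose pair of ratios lay nearest to that of CDH1 were H1FX, a linker histone, TNFAIP3, an inhibitor of NF-kB signalling, and DLC1. In all, 15 of 9660 genes lay within 0.1 log2 units of CDH1. CDH2 lay nearer the middle of all genes, where 749 genes were that near, and its nearest were HNRNPUL2, GOLGA7 and ZNF614. A distance of 0.1 lies inside the counting intervals of CDH1 in both libraries, so which genes are nearest to it is not settled at this depth. TANGO6, the protein-coding gene beginning 8056 bp beyond CDH1, was counted 627, 570 and 601 times, with log2 ratios of -0.24 and -0.14, and CDH3 on its other side had 9, 10 and 18 counts. The pseudogene FTLP14 inside CDH1 had 12, 4 and 2 counts in the control, sh1 and sh2.

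VIM and FN1, the mesenchymal proteins of the set, were abundant and behaved differently from each other. VIM (ENSG00000026025, protein-coding, plus strand of chromosome 10, 17228259 to 17237593) encodes the intermediate filament vimentin. It was counted 5368 times in the control, 5960 times in sh1 and 8222 times in sh2, or 217, 217 and 292 TPM. The sh2 library stood apart from both other libraries. The log2 ratio was 0.05 (-0.002 to 0.105) in sh1, an interval that lies above 0 with DESeq2 size factors or with total counts. It was 0.53 (0.48 to 0.58) in sh2, which was 0.48 (0.44 to 0.53) above sh1. Neither passed 2-fold, and 90.2% of all genes had a lower ratio than VIM in sh2. VIM was counted 9.98 times as often as CDH1 in the control, 16.6 times in sh1 and 31.5 times in sh2, a 1.67-fold (1.45 to 1.92) and 3.16-fold (2.71 to 3.69) difference from the control. The antisense gene VIM-AS1, whose reads cannot be told from those of VIM where they overlap unless strand was used in counting, had 13, 10 and 17 counts.

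FN1 (ENSG00000115414, protein-coding, minus strand of chromosome 2, 215360440 to 215436172) encodes fibronectin, the matrix protein that mesenchymal cells deposit. Its counts of 8329 in the control, 8364 in sh1 and 8196 in sh2 give log2 ratios of -0.09 (-0.14 to -0.05) and -0.10 (-0.15 to -0.06). Both libraries were slightly below the control (93.7% and 93% of it), beyond counting error at this depth and close to the middle of all genes, since 41.5% of genes had a lower ratio in each library. Of its receptors and the related integrins, 11 of 13 listed genes had at least 1 CPM, and their median log2 ratio was 0.38 in sh1 and 0.14 in sh2 beside -0.02 and -0.03 over all genes. The most abundant of them per length were ITGB1, the shared beta subunit (39295, 41011 and 41322 counts, log2 ratios -0.04 and -0.01), and ITGA3 (20190, 28077 and 24202 counts, 0.38 and 0.18).

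EPCAM (ENSG00000119888, protein-coding, plus strand of chromosome 2, 47345158 to 47387601), an adhesion protein of epithelial cells, was scarce in A549. It was counted 32 times in the control and 29 times in each shRNA library. The log2 ratios of -0.23 (-1.02 to 0.53) and -0.21 (-1.0 to 0.55) have intervals too wide to show a difference smaller than about 2-fold at this depth. No direction was detectable for EPCAM.

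The zinc-finger homeobox repressors ZEB1 and ZEB2 stayed within a small distance of control. ZEB1 (ENSG00000148516, protein-coding, plus strand of chromosome 10, 31318495 to 31529814) was counted 464 times in the control, 425 times in sh1 and 480 times in sh2. Its log2 ratio was -0.23 (-0.42 to -0.03) in sh1, below the control beyond counting error, and -0.03 (-0.22 to 0.16) in sh2, with sh2 above sh1 by 0.19 (0.003 to 0.39). The antisense transcript ZEB1-AS1, which overlaps the start of ZEB1, had 44, 17 and 32 counts, and the pseudogene SPTLC1P1 inside the gene had 22, 37 and 3.

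ZEB2 (ENSG00000169554, protein-coding, minus strand of chromosome 2, 144364364 to 144524583) had 276, 264 and 272 counts in the control, sh1 and sh2. Its log2 ratios of -0.16 (-0.41 to 0.08) and -0.10 (-0.35 to 0.15) both had intervals across 0. Inside each library, ZEB1 counts were 1.68, 1.61 and 1.76 times those of ZEB2, and the difference between libraries had intervals on both sides of 0 in every pair. ZEB2-AS1 and the pseudogene ZEB2P1 had no count in any library.

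The SNAI and TWIST factors did not move together. SNAI1 (ENSG00000124216, protein-coding, plus strand of chromosome 20, 49982999 to 49988886), the Snail repressor of CDH1, was counted 112 times in the control, 135 times in sh1 and 172 times in sh2. Its log2 ratio was 0.17 (-0.20 to 0.54) in sh1 and 0.53 (0.19 to 0.89) in sh2, and sh2 exceeded sh1 by 0.36 (0.04 to 0.70). By point values in scaled counts, SNAI1, SNAI2 and VIM were highest in sh2, TWIST1 in sh1, and ZEB1 and ZEB2 in the control. CDH1 was lowest in sh2, and a link between these genes was not tested. SNAI1P1, a processed pseudogene of SNAI1, had no count in any library.

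SNAI2 (ENSG00000019549, protein-coding, minus strand, 48917604 to 48921740 of chromosome 8), the Slug factor, was counted 61 times in the control, 48 times in sh1 and 79 times in sh2. The shRNA libraries fell on either side of the control. The log2 ratio was -0.43 (-1.02 to 0.12) in sh1 and 0.28 (-0.21 to 0.80) in sh2, neither beyond counting error, and sh2 lay above sh1 by 0.71 (0.20 to 1.29). SNAI2 counts were 0.545 of SNAI1 counts in the control, 0.356 in sh1 and 0.459 in sh2, with intervals of the difference across 0 in every pair of libraries.

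TWIST1 (ENSG00000122691, protein-coding, minus strand of chromosome 7, 19020991 to 19117672), a basic helix-loop-helix factor, had 104 counts in the control, 181 in sh1 and 138 in sh2. Its log2 ratio was 0.69 (0.34 to 1.06) in sh1 and 0.32 (-0.05 to 0.71) in sh2, and the ratio of sh2 to sh1 was -0.37 (-0.70 to -0.04). TWIST1 was above 94.5% of all genes in sh1, and of the 10 genes it alone was higher in sh1 than in both other libraries beyond counting error. HDAC9, the protein-coding gene that lies 18575 bp away, had 19, 34 and 35 counts.

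**Figure D3:**
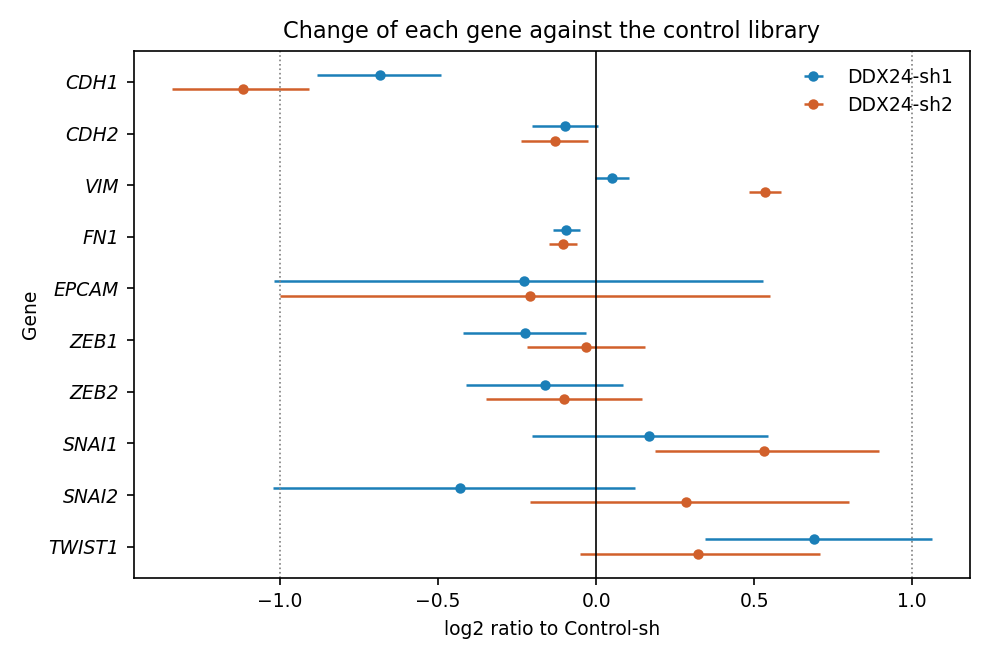
Log2 ratio to the control of each of the 10 genes in sh1 and sh2 (points) with exact 95% counting intervals (bars); dotted lines mark 2-fold. CDH1 in sh2, at -1.12, is the one point past a dotted line.

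Read against all genes, few of the 10 passed a threshold. In sh1, 0 of the 10 were 2-fold higher beside 2.32% of all genes, and 0 were 2-fold lower beside 2.27%. In sh2, 0 were 2-fold higher beside 2.89%, and 1, CDH1, was 2-fold lower beside 3.07%. In both libraries with the same sign, 0 were 2-fold higher beside 1.19%, and 0 were 2-fold lower beside 1.38%. Beside such shares, a count of 1 in 10 is no reading about the group.

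By counting error alone, TWIST1 lay above control in sh1 (1 of 10, beside 23.6% of all genes) and CDH1, FN1 and ZEB1 lay below (3 of 10, beside 29.5%). In sh2, VIM and SNAI1 lay above (2 of 10, beside 23.6%) and CDH1, CDH2 and FN1 below (3 of 10, beside 30.8%, or 2 of 10 with scaling by total counts, where the interval of CDH2 crosses 0). In both libraries, 0 of 10 lay above (beside 14.0%) and 2, CDH1 and FN1, lay below (beside 20.6%). These shares lie close to those of all genes or below them. The median log2 ratio of the 10 genes was -0.13 in sh1 and -0.07 in sh2.

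Other cadherins and junction genes were read from lists to place CDH1 among the proteins it works with. Of 20 further cadherins, 4 had at least 1 CPM, and all 4 lay below control in both libraries, as did 40.2% of all genes. Below control beyond counting error in both were 2 of the 4, beside 20.6% of all genes. The 4 had a median log2 ratio of -0.87 in sh1 and -0.45 in sh2. Over all 20 measured genes the medians were 0.00 and -0.04. CDH4, retinal cadherin and the most abundant per length, had 982, 615 and 455 counts and log2 ratios of -0.77 and -1.19. CDH24 had 200, 108 and 172 counts, with ratios of -0.98 and -0.30. CDH7, below 1 CPM on average and singled out after its values were seen, had no count in the control, 14 in sh1 and 15 in sh2. With the control set at 3 counts these are 4.35-fold and 4.73-fold higher, before counting error in the shRNA libraries. The low ends of its log2 intervals were 1.63 and 1.76. Other cadherins below 1 CPM fell on either side of control, such as CDH6 (6, 18 and 27 counts) and CDH15 (5, 0 and 2).

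Among the catenins, which link cadherins to actin, and the nectins, 11 of 15 genes had at least 1 CPM and 0 passed 2-fold in either library. Of all genes, 2.32% were 2-fold higher and 2.27% lower in sh1, and 2.89% and 3.07% in sh2. Beside such shares, 0 of 11 is no reading about this list. JUP, plakoglobin, had 10694, 11192 and 6511 counts, so that its log2 ratio was -0.03 in sh1 and -0.80 in sh2. CTNNA1, alpha-catenin, had ratios of -0.14 and -0.21 (7418, 7226 and 6766 counts). Beyond counting error in both libraries, 4 of the 11 lay above control, beside 14.0% of all genes, and 2 lay below, beside 20.6%. The list medians were 0.21 and -0.08.

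Tight junction and polarity genes lay mostly below control. Of 19 genes with at least 1 CPM among 22, 14 were below control in both libraries and 1 was above, beside 40.2% and 34.6% of all genes, and the medians were -0.24 and -0.53. Past 2-fold in both libraries were OCLN, occludin (532, 262 and 213 counts, log2 ratios -1.12 and -1.39), TJP3, a scaffold protein of these junctions (174, 83 and 46 counts, -1.15 and -1.95), and CLDN2, a pore-forming claudin (142, 67 and 68 counts, -1.16 and -1.12), all lower. CLDN4, a barrier claudin, was 2-fold higher in both (59, 155 and 153 counts, 1.27 in each). CLDN1, the most abundant of the list per length, had 3753, 2243 and 1927 counts and log2 ratios of -0.84 and -1.04, and SCRIB, a polarity protein, had ratios of -0.19 and -0.28.

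Epithelial transcription factors and splicing regulators were partly missing from these cells. Of 13 listed genes, 7 had at least 1 CPM, with medians of -0.45 and -0.57 (0.00 and -0.14 over all 13). In both libraries, 5 of the 7 lay below control, beside 40.2% of all genes, and 1, EHF, lay above, beside 34.6%. KLF4 fell beyond 2-fold in both, from 343 counts to 132 and 147 (log2 ratios -1.46 and -1.29). KLF5 had 2396, 1544 and 1334 counts and ELF3 had 2346, 1845 and 1673, with ratios of -0.73 and -0.92 and of -0.45 and -0.57. Singled out after their values were seen, GRHL2 and OVOL1, both of which maintain epithelial genes, had no count in any library, and the epithelial splicing regulators ESRP1 and ESRP2 had 1, 3 and 1 and 0, 2 and 2 counts. Other listed members of these families were counted. GRHL3 had 37, 79 and 29 counts (log2 ratios 0.96 and -0.41), GRHL1 had 10, 17 and 20, and OVOL2 had 1, 0 and 0.

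Epithelial surface, desmosome and keratin genes were split. Of 19 genes, 14 had at least 1 CPM, with medians of 0.11 and 0.004. KRT19, a keratin of simple epithelia, rose beyond 2-fold in both libraries, from 1001 counts to 2251 and 2728 (log2 ratios 1.07 and 1.36). KRT7 (40475, 45346 and 50979 counts) and KRT8 (64704, 69499 and 63926 counts), also of simple epithelia, had log2 ratios of 0.06 and 0.25 and of 0.00 and -0.10.

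Further EMT factors, their cofactors and the TGF-beta pathway, which induces SNAI and ZEB genes in many cells, were also listed. Of 19 other EMT factors, 15 had at least 1 CPM, with medians of 0.03 and -0.03 (0.29 in sh1 over all 19). SNAI3, a SNAI family member, rose beyond 2-fold in both libraries (24, 83 and 56 counts, log2 ratios 1.61 and 1.08), and ETS1 fell beyond 2-fold in both (1314, 632 and 664 counts, -1.15 and -1.06). The most abundant per length, SOX4 and ZNF281, had ratios of -0.25 and -0.67 and of 0.29 and -0.03. All 14 cofactor and turnover genes had at least 1 CPM and 0 passed 2-fold. Of all genes, 2.32% were 2-fold higher and 2.27% lower in sh1, and 2.89% and 3.07% in sh2. LOXL2, which stabilises SNAI1, had ratios of 0.56 and 0.11 (8691, 13728 and 9927 counts) and HDAC1 had 0.01 and -0.06. Of 11 TGF-beta and SMAD genes with at least 1 CPM among 12, 8 lay below control in both libraries, beside 40.2% of all genes. Their medians were -0.34 and -0.39, and 0 passed 2-fold, beside the same shares of all genes. TGFB1 had 5345, 5784 and 4315 counts (0.01 and -0.39) and SMAD3 had 8640, 7275 and 8073 (-0.35 and -0.18).

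Mesenchymal genes outside the 10 gave medians of 0.56 and 0.48 over 11 of 13 genes. TAGLN, an actin-binding protein of contractile cells, rose beyond 2-fold in both libraries (151, 480 and 495 counts, log2 ratios 1.56 and 1.62). S100A4, a calcium-binding protein and among the most abundant of the list per length, had 9269, 14606 and 10885 counts, with log2 ratios of 0.56 and 0.15. VIM, FN1, CDH2 and TAGLN did not share a direction in either library.

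Markers of other cell types were read from the same libraries. Of 8 fibroblast markers, 4 had at least 1 CPM. All 8 summed to 17.4 TPM in the control, 32.2 in sh1 and 23.3 in sh2. THY1 made up most of this, at 11.7, 22.3 and 15.6 TPM (log2 ratios 0.98 and 0.52). COL1A1 had 139, 174 and 143 counts, with ratios of 0.22 and -0.04 and both intervals across 0. LUM was 2-fold higher in both (27, 80 and 68 counts, log2 ratios 1.40 and 1.2). Below 1 CPM were COL3A1 (2, 27 and 8 counts), PDGFRB (21, 15 and 9), DCN (1, 1 and 0) and COL1A2 (0, 0 and 3). Leukocyte markers summed to 15.7, 10.9 and 7.69 TPM, with 1 of 6 genes, CD14, at 1 CPM or more and PTPRC, CD3E and MS4A1 at 0. Endothelial markers summed to at most 0.736 TPM, with 0 of 5 genes at 1 CPM. Alveolar type II markers summed to 40.6, 38.8 and 29.4 TPM, with ABCA3 and NAPSA alone of 10 at 1 CPM or more and NKX2-1, SFTPA1 and SFTPA2 at 0. The part of these genes, and of the mitochondrial share, in the values of the 10 genes was not tested.

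**Figure D4:**
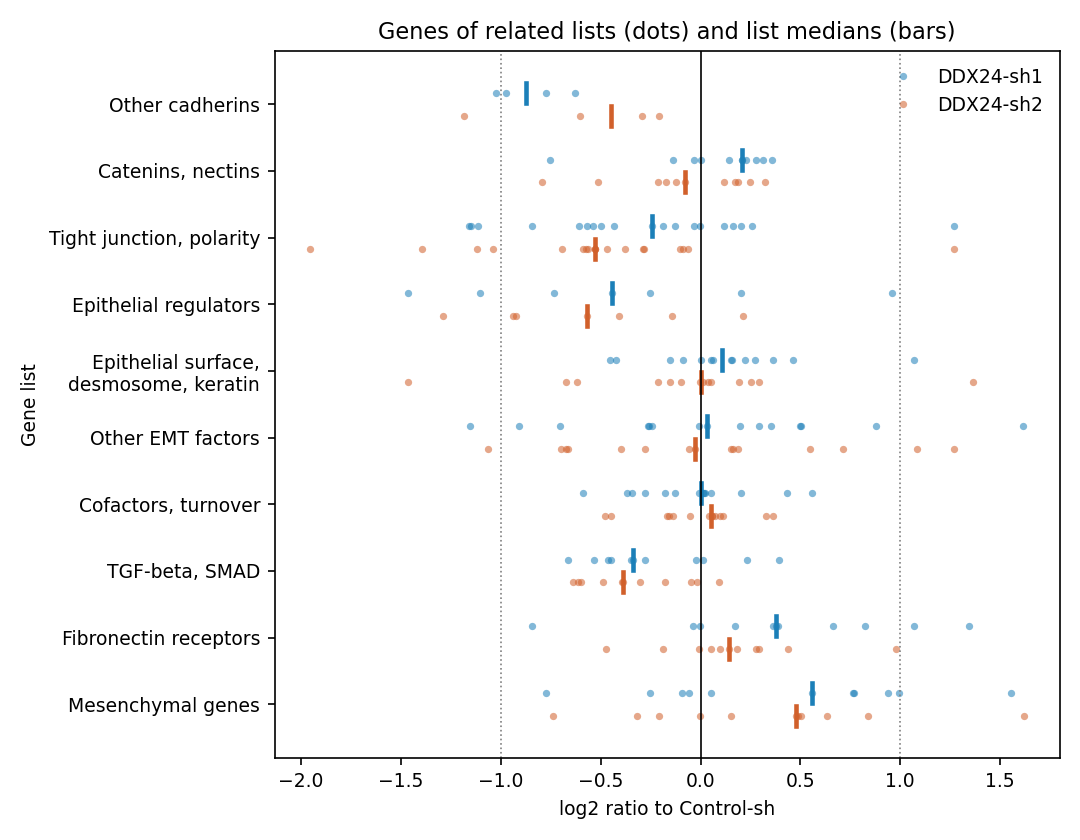
Log2 ratio to the control of each gene with at least 1 CPM in 10 related lists (dots) with the list median (bar), for sh1 and sh2; dotted lines mark 2-fold. Of the tight junction and polarity genes, 14 of 19 lie below 0 in both libraries.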

How the data were processed

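RNA-seq of 3 A549 libraries was analysed from the tables that the authors deposited: raw counts per gene, whole numbers without normalization, and FPKM per gene, which divide by gene length and library size. The submitters' processing notes name Bowtie2 2.0.6, TopHat2 2.0.9, Cufflinks 2.1.1 and Cuffdiff 2.1.1 without roles, and the counter, strandedness and genome build are not given in the sources used here. All 58735 identifiers, starts and ends, and 58708 names, are those of GENCODE 29.

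Ratios were computed from counts with edgeR 4.0.16 in R 4.3.3 (TMM scaling, prior count of 2) over genes averaging 1 CPM or more. No model was fitted, since each condition had 1 library. Intervals are exact 95% conditional binomial (Clopper-Pearson) intervals of 2 counts, and Poisson intervals for levels. The steps were tested on simulated data. The 10 genes and the 14 gene lists were chosen with earlier results of these data known. Named from each list were genes past 2-fold in both libraries and the 2 with the highest control TPM. The 3 genes nearest to CDH1 and CDH2, overlapping genes and neighbouring genes were also named. Some genes that this rule covers are not reported here. Alternatives were DESeq2 1.42.0 size factors, total counts, a prior count of 0.5, log2(FPKM + 0.1) with the labels as deposited or exchanged, other filters, a 1.5-fold threshold and protein-coding genes only. The length of the longest coding transcript was added after seeing the data.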

Additional observations from a re-analysis of the deposited data

Results flagged for a closer look

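SNAI2 lay below control in sh1 (-0.43) and above it in sh2 (0.28), a gap between the shRNA libraries of 0.71 on the log2 scale, and it was the one gene of the 10 with opposite signs. With 1 library each, the difference was not tested, and its counts of 61, 48 and 79 are among the lowest of the set.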

How the results depend on the processing

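No paired analysis was possible because each condition has 1 library. With the FPKM labels as deposited, the CDH1 ratios were -1.08 in sh1 and -0.66 in sh2, so the fall beyond 2-fold moves to the other shRNA label, and VIM was 0.54 and 0.06. SNAI2 was then 0.28 and -0.39. With the labels exchanged, all 20 values lay within their counting intervals. At 1.5-fold, 1 of the 10 genes (TWIST1) was higher in sh1, 1 (CDH1) was lower there and 1 (CDH1) was lower in both libraries. With DESeq2 size factors or total counts, 2 genes lay above control beyond counting error in sh1 and 1 (VIM) in both, against 1 and 0, while with total counts 2 rather than 3 lay below control in sh2, as CDH2 dropped out. No ratio of the 10 genes that lay beyond counting error changed sign under any alternative. Over all genes, 325 higher and 318 lower in sh1 and 404 and 430 in sh2 became 1672, 1880, 2172 and 1764 with no filter, 69, 137, 77 and 197 at 10 CPM or more, and 1062, 1153, 1202 and 1330 at 1.5-fold. In both libraries, 167 and 193 became 719 and 912, 34 and 105, and 592 and 660. Medians of short lists moved most with the filter: the other cadherins went from -0.87 and -0.45 to 0.00 and -0.04 over all measured genes, and at 10 CPM or more 1 gene, CDH4, is left. Depth limits EPCAM and SNAI2 most.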
